A study of Mus musculus with 8 samples.

Results

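The genes described here are 8 genes of pancreatic ducts and of the pancreatic progenitor cells of the embryo, namely Sox9, Cftr, Spp1, Muc1, Onecut1, Onecut2, Hes1 and Gata6. They were chosen by name, and their probes were found through the RefSeq accession that the array files give for each probe. They are measured by 10 of the 56605 distinct probes, with Sox9 and Cftr by 2 probes and each of the other genes by 1, and stand among 22911 genes that could be named. Islets were compared between mice in which Fbln5, encoding the secreted elastic fiber protein fibulin-5, was deleted in β-cells and floxed control mice. The βFbln5KO mice carry an Fbln5-floxed allele and Cre under the control of the insulin 1 promoter of the mouse (Ins1-Cre), which is active in β-cells. The control mice carry the floxed allele, and their labels name no Cre, so that the presence of Cre and the loss of Fbln5 go together. All mice were male littermates aged 11 weeks. RNA was extracted from 150 islets per extraction right after isolation, with 4 extractions per group, so that each value is an average over all cell types of the islets and of any tissue attached to them.

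Ducts and acini make up the exocrine pancreas, and both arise, like the islets, from a common epithelium of progenitor cells. In that epithelium the SOX, ONECUT and GATA transcription factors maintain the progenitor state, and Notch signaling, read out by Hes1, restrains the entry into the endocrine lineage. In the adult, Sox9, Onecut1 and Hes1 are known from duct cells and from the centroacinar cells at the ends of the ducts, while β-cells are known to have low levels of Sox9 and Onecut1. In a bulk sample fewer cells of a type and less RNA per cell cannot be told apart.

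All 8 arrays lay on 1 slide and were read in 1 scan. The control arrays filled 1 row of the slide and the βFbln5KO arrays the other, and the row of an array cannot be told apart from its genotype. Signals are given on the log2 scale relative to the 75th percentile of each array, which lay between 709 and 1055 in intensity. The scanner software calls a spot well above background from its own background estimate, here also called detected, and this held for 33592 to 34889 of 59305 spots on the control arrays and for 31214 to 33549 on the βFbln5KO arrays. The lowest signal called well above background was −5.01 to −4.79 in control islets, below the −4.70 to −4.19 of βFbln5KO islets, so a signal near these values could be detected in control and missed in βFbln5KO islets. The log2 signal of Fbln5 itself averaged −1.72 ± 0.31 for the controls (SD, n = 4) and −2.22 ± 0.59 for βFbln5KO (SD, n = 4), with adjusted p = 0.342 in limma, and the array labelled βFbln5KO replicate 4 lay within the control range. With so few arrays the precision is limited, and an exact two-sided permutation test of 4 against 4 cannot give a p below 0.0286. Probe levels of different genes were not compared with each other, because probes differ in their response.

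The samples were islets by their markers. All 6 β-cell, 4 α-cell, 3 δ-cell and 2 PP-cell marker genes gave signals well above background on each of the 8 arrays. They also held exocrine RNA: 11 of 12 acinar marker genes were detected in this way on each array, and the sum of their signals, in units of the 75th percentile of each array, ranged from 1093 to 3294 on the control arrays and from 669 to 1952 on the βFbln5KO arrays. The acinar sum was 1312, 1093, 3294 and 2627 on control replicates 1 to 4, and 1212, 669, 689 and 1952 on βFbln5KO replicates 1 to 4. Control replicates 3 and 4 and βFbln5KO replicate 4 had the highest values. The median difference of the acinar genes was −1.03 in log2, and 1 of 12, Cela1, was lower at an unadjusted limma p under 0.05 while 0 passed an adjusted one. Of the 7 genes used as defining duct markers, 6 were detected above background on every array, and the secretin receptor gene Sctr was on 1 control array alone. Their summed signal spanned 6.94 to 7.91 in control islets and 6.88 to 7.37 in βFbln5KO islets.

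The start regions of Muc1 and Onecut1 are shown because, by their brightest probes, these genes had the largest differences of the 8. The sequences are from RefSeq (GRCm38.p6) and hold the 250 bases before the annotated start of each gene, at chr3:89228806-89229055 (plus strand) for Muc1 and chr9:74861671-74861920 (plus strand) for Onecut1. Capitals mark a TATA box (TATAAA) or a GC box (GGGCGG), searched on both strands.
Muc1: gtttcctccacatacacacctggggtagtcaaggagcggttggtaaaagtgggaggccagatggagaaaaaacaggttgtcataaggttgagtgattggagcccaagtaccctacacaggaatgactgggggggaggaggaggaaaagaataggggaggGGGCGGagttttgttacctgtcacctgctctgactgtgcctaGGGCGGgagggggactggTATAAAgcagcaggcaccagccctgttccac
Onecut1: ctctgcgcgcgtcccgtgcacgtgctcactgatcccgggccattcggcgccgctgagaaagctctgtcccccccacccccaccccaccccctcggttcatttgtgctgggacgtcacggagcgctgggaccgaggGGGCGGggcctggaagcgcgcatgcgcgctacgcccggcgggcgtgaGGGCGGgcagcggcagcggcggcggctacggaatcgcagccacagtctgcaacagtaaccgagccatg
The Muc1 window holds a TATA box that begins 31 bases before the start and 2 GC boxes, and the Onecut1 window holds 2 GC boxes and no TATA box. Over 32851 windows of the same length in the reference, 12.4% hold TATAAA and 32.7% hold GGGCGG. Neither window holds the letters searched for ONECUT factors (ATCGAT or ATCAAT, in 7.40% of windows), SOX factors (AACAAT, 9.42%), RBPJ (TGGGAA, 21.6%), GATA factors (AGATAA, 9.99%), FOXA factors (TGTTTA or TGTTTG, 25.3%) or the E-box CAGCTG (13.0%), on either strand. These matches describe letters in the windows and not binding.

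None of the 8 genes differed between the groups at an adjusted p under 0.05 in limma, a threshold that 0.0131% of all 22911 genes passed by their brightest probe. Over all probes that background depended on 1 array, with 5 probes higher and 1 lower on all arrays and 11206 higher and 338 lower without βFbln5KO replicate 4. None of the 8 genes passed there by its brightest probe either. The background also depended on the limma setting, with 6184 higher and 394 lower on all arrays without a trend in eBayes. With an unadjusted limma p under 0.05, 1 of the 8 genes, Onecut1, was lower in βFbln5KO islets and 0 were higher. Of all genes 2.68% were lower and 16.8% higher by that threshold, and lower ones made up 3.83% of the 3549 genes that, like Onecut1, were detected on 1 to 7 arrays. Of the 3845 higher genes, 3462 were dim on every array, and of the 13650 genes detected on every array 138 were higher and 420 lower. Over all probes, 11730 were higher and 2246 lower as reported here, 227 and 1968 with dim probes left out, 350 and 1676 with dim signals raised to a common floor, 301 and 3222 after a normexp background correction, and 929 and 2424 after quantile normalization. The median log2 fold change of the 8 genes was −0.15, beside 0.024 over all genes, −0.0082 over genes detected on every array and −0.053 over those detected on 1 to 7 arrays. The 3 of the 8 genes detected on every array had a median of 0.029. The signals of all 8 genes overlapped between the groups, as did those of most genes, with 17.8% of all genes not overlapping in either direction and 1.82% not overlapping and lower in βFbln5KO islets. Only Spp1, Onecut2 and Gata6 were detected above background on every array, and the other 5 genes were so on 1 to 6 arrays. For genes that were dim on every array the median difference was 0.48, so a raised value of a dim probe in βFbln5KO islets has this shift in it.

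**Figure D1:**
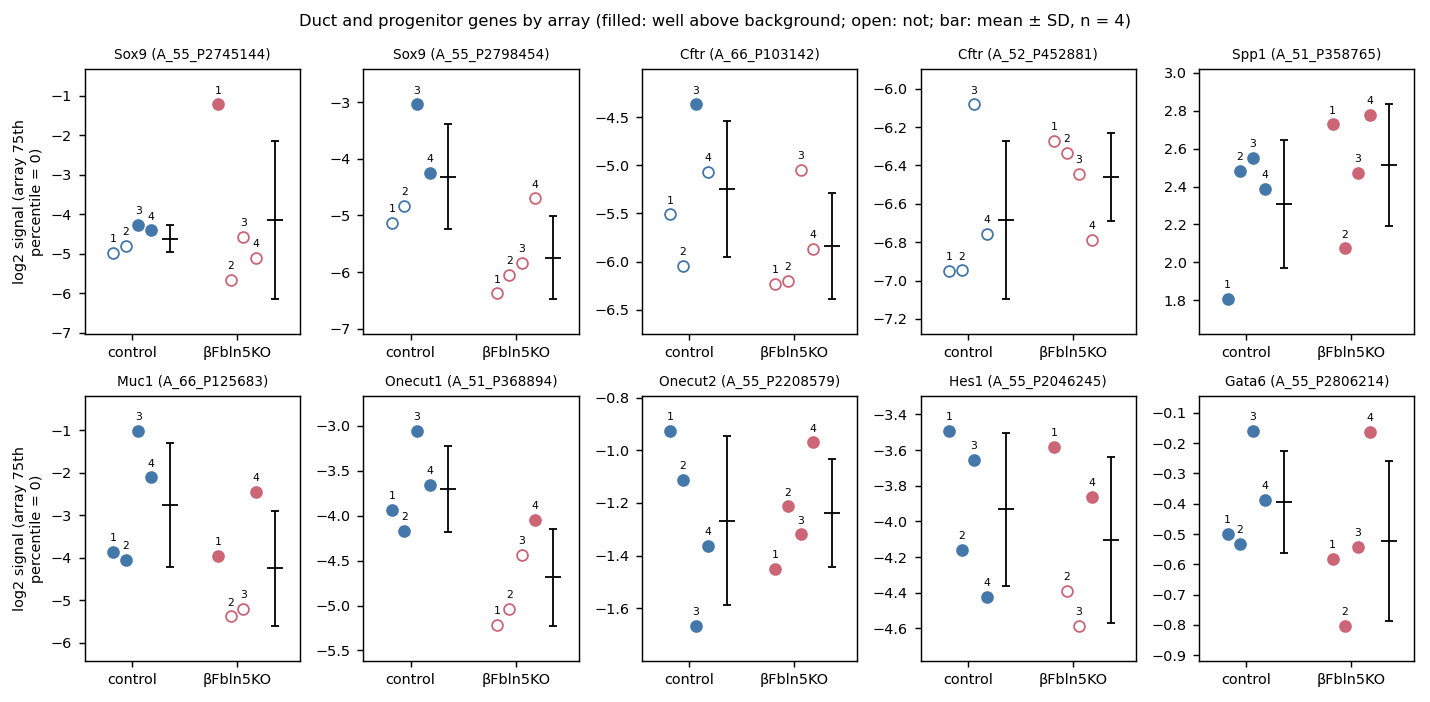
Log2 signal of each of the 10 probes of the 8 genes (vertical axis, with the 75th percentile of the array at 0, and a range of its own in each panel), with 1 point per array, numbered by replicate, in control and βFbln5KO islets. Filled points are well above background, open points are not, and the bar is the mean ± SD of 4 arrays; the groups overlap in all 10 panels, and control replicate 3 is the highest array for Muc1, Onecut1, Gata6, both Cftr probes and 1 Sox9 probe.

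Onecut1 (chromosome 9, 74861921 to 74889648) encodes hepatocyte nuclear factor 6, a transcription factor of progenitors and duct cells that acts upstream of the endocrine regulator Neurog3. Its log2 signal was −3.94, −4.17, −3.06 and −3.66 on control replicates 1 to 4 and −5.22, −5.04, −4.44 and −4.05 on βFbln5KO replicates 1 to 4. It could be told from background on 4 control arrays and on 1 βFbln5KO array, and 3 βFbln5KO arrays lay below every control array, while replicate 4 lay within the control range. The difference was −0.98 on the log2 scale (SE 0.35, 95% interval −1.78 to −0.18), with an unadjusted p of 0.0220 and an adjusted p of 0.115 in limma, and over the alternatives tried the adjusted p ranged from 0.0536 to 1.0. No fold is drawn from it, since the signals of 3 of the 4 βFbln5KO arrays were not well above background. The exact two-sided permutation test gave p = 0.0571. The study listed Onecut1 among the genes lowered on these same arrays, with a larger decrease than the one fitted here. The difference given here is therefore not independent evidence. It was −0.36 with a background correction by normexp and −0.45 with dim signals raised to a common floor, and with that floor the unadjusted limma p was 0.0965. The unadjusted p was also above 0.05 without control replicate 3 (0.0644), βFbln5KO replicate 1 (0.0588) or βFbln5KO replicate 2 (0.0564), in limma.

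Muc1 (chromosome 3, 89229056 to 89233381) encodes mucin 1, a transmembrane mucin of the apical face of duct and acinar cells. Its log2 signal was −3.87, −4.06, −1.02 and −2.11 on control replicates 1 to 4 and −3.96, −5.39, −5.20 and −2.45 on βFbln5KO replicates 1 to 4. It was called present above background on 4 control and 2 βFbln5KO arrays, and it varied widely within the groups, with SDs of 1.46 among control and 1.35 among βFbln5KO arrays. Its difference of −1.49 (SE 0.84, 95% interval −3.39 to 0.42) had an interval that spans 0, with adjusted p = 0.334 in limma and an exact two-sided permutation p of 0.200. It was −0.72 with a background correction by normexp, −0.94 with dim signals raised to a common floor, −0.91 without control replicate 3 and −2.09 without βFbln5KO replicate 4.

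The order of the 8 arrays by Muc1 was that of the mean acinar marker signal: control replicates 3 and 4, βFbln5KO replicate 4, control replicate 1, βFbln5KO replicate 1, control replicate 2 and βFbln5KO replicates 3 and 2. The mean log2 acinar signal spanned 4.80 to 6.97 on the control arrays and 4.08 to 6.05 on the βFbln5KO arrays. The duct markers, by the same mean, spanned −1.63 to −1.11 in control islets, −1.64 to −1.23 in βFbln5KO islets, and was also highest on control replicate 3. The same array was highest for Onecut1, Gata6, the brighter Cftr probe and the Sox9 probe A_55_P2798454. Of the 3 arrays with the most acinar signal 2 were controls. Its part in the differences of Muc1 and Onecut1 was not tested. A setting without these 3 arrays, chosen after the values were seen, keeps fewer arrays in each group. There the log2 fold change was −0.89 for Muc1 (adjusted p 0.412 in limma). For Onecut1 it was −0.84 (unadjusted p 0.0773 and adjusted p 0.256 in limma), beside −0.98 on all arrays. Onecut1 was then not called at an unadjusted p under 0.05. Whether fewer arrays or acinar signal account for this was not tested. The 1 gene of the 8 called lower in that setting was Onecut2, at −0.31 (unadjusted p 0.0475 and adjusted p 0.175 in limma). Over all 56600 probes of that fit, 1562 were lower and 13978 higher at an unadjusted limma p under 0.05.

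**Figure D2:**
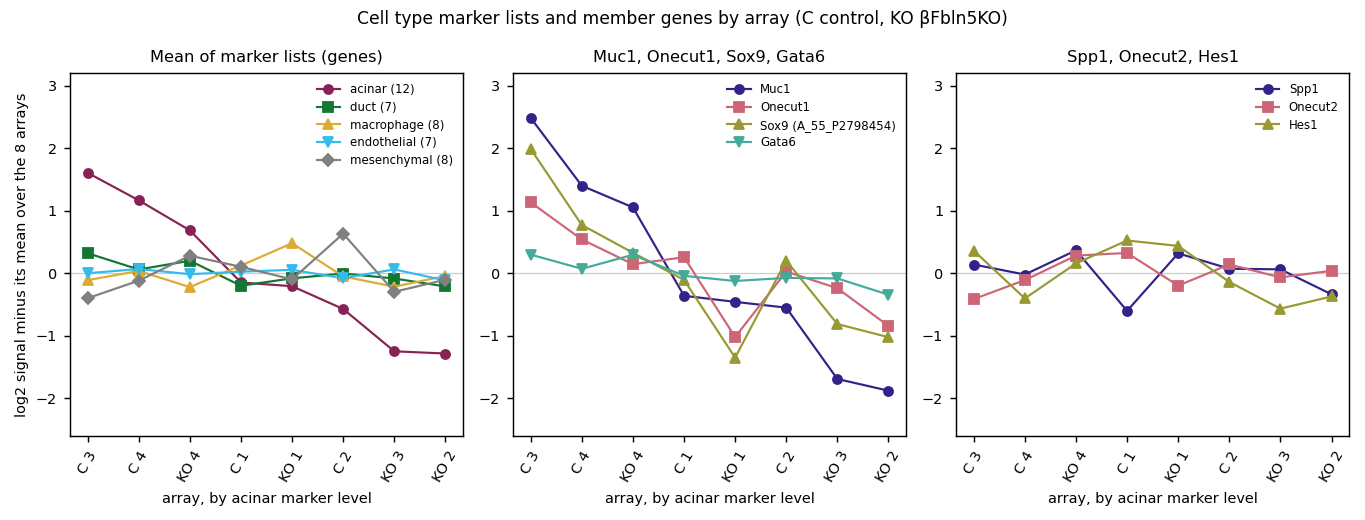
Log2 signal minus its mean over the 8 arrays (vertical axis) for the mean of each cell type marker list (left) and for 7 of the 8 genes (middle and right), with the arrays ordered by acinar marker signal (C, control; KO, βFbln5KO). Muc1 falls along the same order as the acinar markers, and Onecut1, Gata6 and the Sox9 probe A_55_P2798454 are highest on control replicate 3, whereas Spp1, Onecut2 and Hes1 follow no such order.

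Sox9 (chromosome 11, 112782210 to 112787757) encodes the transcription factor that marks duct cells and the progenitor pool. Its probes disagreed. The brighter one, A_55_P2745144, read −4.98, −4.80, −4.27 and −4.41 on control replicates 1 to 4 and −1.22, −5.66, −4.58 and −5.10 on βFbln5KO replicates 1 to 4. This spot was well above background on control replicates 3 and 4 and on βFbln5KO replicate 1, which stood far above the other 7 arrays. The other probe, A_55_P2798454, was −6.38 on βFbln5KO replicate 1, its lowest value of the 8 arrays. On that array, 5 of the 23 probe spots within 2 rows or columns of the brighter Sox9 spot also lay more than 2 log2 units above their mean on the other 7 arrays, and on each of the other arrays 0 or 1 did. Around each of the other 9 probes of the set this count was 0 to 2 on every array. The probe A_55_P2745144 is the brighter by its mean over all 8 arrays, with βFbln5KO replicate 1 included. On the control arrays it averaged −4.61, below the −4.31 of the other probe. The list median of −0.15 reads Sox9 by this probe. The log2 fold change of the brighter probe was 0.48 (SE 0.86, adjusted p 0.818 in limma), and it was −0.50 without βFbln5KO replicate 1.

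The probe A_55_P2798454 of Sox9 gave log2 signals of −5.13, −4.83, −3.04 and −4.26 on control replicates 1 to 4. On βFbln5KO replicates 1 to 4 it gave −6.38, −6.05, −5.84 and −4.70. It was well above background on control replicates 3 and 4 and on no βFbln5KO array, and the signal was at least 1.04-fold higher in control, a bound taken against the lowest detectable level of each βFbln5KO array. The fitted difference of −1.43 (SE 0.53) had an unadjusted p of 0.0250 and an adjusted p of 0.126 in limma, with an exact two-sided permutation p of 0.0857. Of the βFbln5KO arrays 3 lay below every control array, and replicate 4 lay within the control range.

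Cftr (chromosome 6, 18170687 to 18322770) encodes the chloride channel of the apical duct membrane that drives fluid secretion. Its brighter probe read −5.51, −6.04, −4.37 and −5.07 in control and −6.23, −6.20, −5.05 and −5.87 in βFbln5KO islets, in the order of the replicates. Only on control replicate 3 was it well above background. The mean of the control arrays was below their lowest detectable level, so no fold is given, and the adjusted p was 0.465 in limma. The other probe, A_52_P452881, was not well above background on any array, with signals from −6.95 to −6.08.

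Gata6 (chromosome 18, 11052510 to 11085636) encodes a zinc-finger transcription factor required for the formation of the pancreas and kept in adult acinar cells. It was well above background on all 8 arrays, with log2 signals of −0.50, −0.53, −0.16 and −0.39 on control replicates 1 to 4 and −0.58, −0.80, −0.54 and −0.16 on βFbln5KO replicates 1 to 4. Control replicate 3 and βFbln5KO replicate 4 stood highest and nearly level, and the other 3 βFbln5KO arrays lay below every control array. The groups differed by −0.13 on the log2 scale (SE 0.14, 95% interval −0.44 to 0.19), with adjusted p = 0.670 in limma and exact two-sided permutation p = 0.343. It was −0.034 without βFbln5KO replicate 2 and −0.25 without βFbln5KO replicate 4, where the unadjusted limma p was 0.0601. Among 96 other genes of the lists detected on every array, those whose signals followed Gata6 most closely over the 8 arrays were Rbpj (Pearson r = 0.95), the DNA-binding partner of Notch, and Yap1 (Pearson r = 0.92), a Hippo pathway coactivator.

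Onecut2 (chromosome 18, 64340032 to 64398488), a relative of Onecut1 known from endocrine precursors, was well above background on all 8 arrays. Its log2 signal was −0.93, −1.11, −1.67 and −1.36 on control replicates 1 to 4 and −1.45, −1.21, −1.32 and −0.97 on βFbln5KO replicates 1 to 4. All 4 βFbln5KO arrays lay within the control range, and control replicate 3, highest for Onecut1, was the lowest array for Onecut2. The log2 difference was 0.029 (SE 0.17, 95% interval −0.35 to 0.41), with an adjusted p of 0.949 in limma. The genes of the lists that followed it most closely were Rfx6 (r = 0.71), an endocrine transcription factor, and Ambp (r = 0.69), each over 8 arrays. They are the highest of 96 candidates, and a shared regulation was not tested.

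Spp1 (chromosome 5, 104435111 to 104441053) encodes osteopontin, a secreted phosphoprotein of duct cells and macrophages. Its log2 signal was 1.81, 2.48, 2.55 and 2.39 on control replicates 1 to 4 and 2.73, 2.07, 2.47 and 2.78 on βFbln5KO replicates 1 to 4. βFbln5KO replicates 1 and 4 lay above every control array, and the other two lay within the control range. The log2 fold change was 0.21 (SE 0.20, 95% interval −0.24 to 0.65), with adjusted p = 0.616 in limma, and it was 0.039 without control replicate 1, the lowest array. The macrophage markers, all 8 of them detected on every array, had a summed signal of 10.9 to 12.6 in control and 10.4 to 12.9 in βFbln5KO islets. The genes of the lists closest to Spp1 over the 8 arrays were Maml1 (r = 0.86), a Notch coactivator, and Pdgfrb (r = 0.76), a receptor of mesenchymal cells. These too are the highest of 96 candidates and were not tested.

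Hes1 (chromosome 16, 30065357 to 30067796) encodes the repressor through which Notch holds back endocrine differentiation. Its log2 signal was −3.49, −4.16, −3.66 and −4.42 on control replicates 1 to 4 and −3.58, −4.39, −4.58 and −3.86 on βFbln5KO replicates 1 to 4. Its spot was called above background on 4 control and 2 βFbln5KO arrays, and only βFbln5KO replicate 3 lay outside the control range, below it. The undetected −4.39 of βFbln5KO replicate 2 lay above the detected −4.42 of control replicate 4, so these detection counts partly reflect the unlike limits. The log2 fold change was −0.17 (SE 0.32, 95% interval −0.89 to 0.55), with an adjusted p of 0.822 in limma. The value moved to −0.012 without βFbln5KO replicate 3 and −0.35 without βFbln5KO replicate 1.

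**Figure D3:**
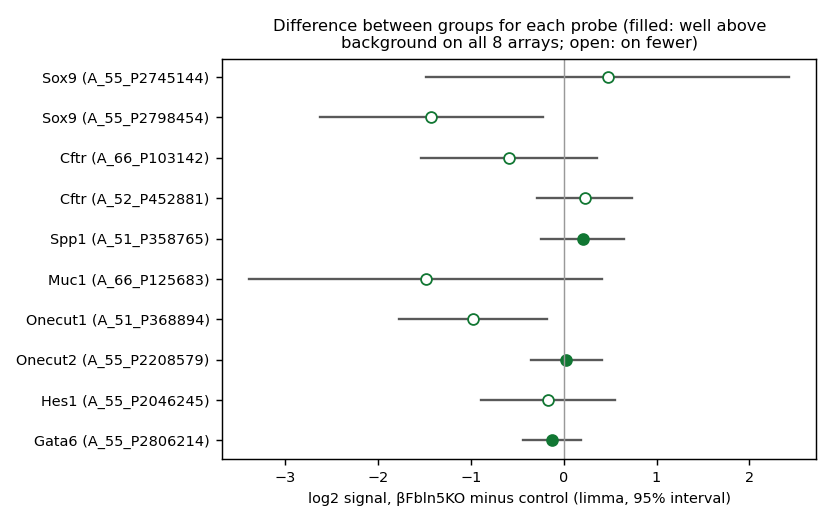
Difference in log2 signal between βFbln5KO and control islets (horizontal axis) for each of the 10 probes, with the 95% interval of limma; filled points are probes well above background on all 8 arrays and open points are the others. The intervals of 8 probes span 0, and those of Onecut1 and the Sox9 probe A_55_P2798454 lie below it, both with an adjusted p above 0.05.

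Other genes of the same tissues and pathway were read from lists of 18 further duct genes, 19 further progenitor genes and 22 Notch pathway genes, each gene by its brightest probe. Of the duct genes, 16 were detected above background on every array, 0 were called in either direction at an unadjusted limma p under 0.05, and the median log2 fold change was −0.017. The smallest p-values were those of the water channel gene Aqp1, with a log2 difference of −0.65 (SE 0.37), for which limma gave an adjusted p of 0.345, Pkhd1 (−0.18, SE 0.14) and the bicarbonate cotransporter gene Slc4a4 (−0.20, SE 0.17). The keratin gene Krt19 differed by −0.28 (SE 0.33), within the spread between arrays. Aqp1 is also known from endothelial cells. It read 0.015, 0.44, −0.93 and −0.98 on control replicates 1 to 4 and −1.06, −1.44, −1.30 and −0.24 on βFbln5KO replicates 1 to 4, so the controls themselves were spread over most of its range and the groups overlapped.

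Of the progenitor genes, 15 of 19 were detected on every array, and the median log2 fold change was −0.071. At an unadjusted limma p under 0.05, 1 gene was higher, Onecut3, and 0 were lower. Onecut3, the remaining ONECUT family member, stayed dim on all 8 arrays, so its log2 difference of 0.53 (adjusted p 0.0728 in limma) is given no fold and lay near the median of dim genes. Gata4, a relative of Gata6, was detected on 4 control arrays and 1 βFbln5KO array, with a difference of −0.91 (SE 0.52) and an adjusted p of 0.344 in limma. The undetected Gata4 values on βFbln5KO replicates 1 and 2, each −4.35, lay above the lowest level detected on any control array. The highest Gata4 value, −2.24, was on control replicate 3. Hhex differed by −0.27 (SE 0.14, adjusted p 0.293 in limma).

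Of the 22 Notch pathway genes, 16 were detected on every array, 1 was higher and 1 lower by the unadjusted limma threshold, and the median log2 fold change was −0.062. The higher one, the ligand gene Dll3, was dim on all 8 arrays. The lower one, Lfng, encoding the Fringe enzyme that modifies Notch receptors, was detected on 2 control arrays and on no βFbln5KO array, and its signal was lower by a factor of at least 1.01, with an adjusted p of 0.0867 in limma. The ligand gene Jag1 differed by −0.26 (SE 0.12, adjusted p 0.222 in limma). Of the other lists, the endothelial (7 genes), macrophage (8 genes) and mesenchymal (8 genes) markers had 0 genes called in either direction at an unadjusted limma p under 0.05, with median log2 fold changes of 0.0028, −0.023 and −0.076. The same holds for the β-cell, δ-cell and PP-cell markers (medians −0.095, −0.10 and −0.049).

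**Figure D4:**
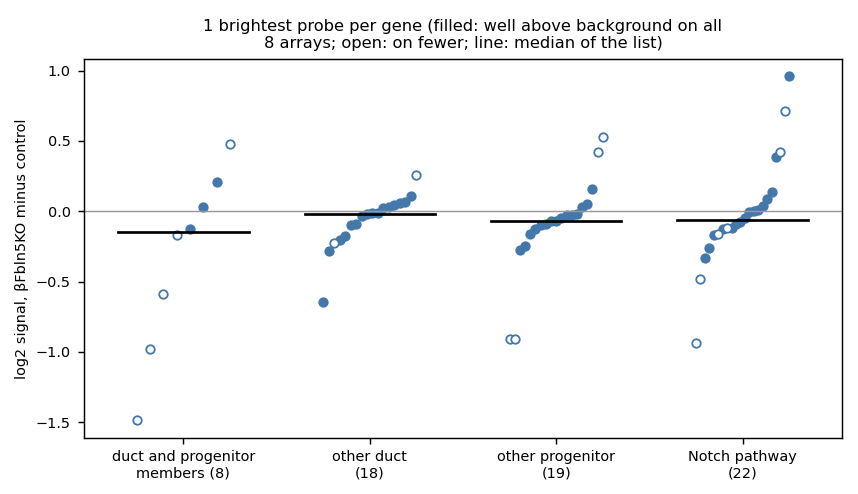
Difference in log2 signal between βFbln5KO and control islets (vertical axis) for the 8 genes and for the genes of the duct, progenitor and Notch lists, with 1 point per gene by its brightest probe and a line at the median of each list. Filled points are well above background on all 8 arrays and open points are the others; the largest differences among the 8 genes, Muc1 at −1.49 and Onecut1 at −0.98, are open points.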

How the data were processed

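Islet RNA of 4 control (floxed) and 4 βFbln5KO extractions was labelled with Cy3 and measured on Agilent one-colour 8x60K mouse arrays. The authors deposited, for each array, the processed signal intensity of Agilent Feature Extraction 11.0.1.1, which is background-subtracted and spatially detrended but not normalized between arrays, and a table of 35553 probes whose intensities are that signal after division by an array-wide constant (99.96% of values within 1%). The deposited flags for spots well above background and for outliers were used as given, and no spot was saturated.

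For the 59305 non-control spots, log2 processed signals were taken minus the 75th percentile of each array, outlier-marked values were left out (1689), and repeated spots of the same probe gave their mean. Symbols were assigned through RefSeq accessions (58.3% of probes matched 1 gene), and a gene was read by its brightest probe. Groups were compared over all probes with limma 3.58.1 (eBayes with trend) in R 4.3.3, with Benjamini-Hochberg adjustment, and single values by exact permutation tests (scipy 1.17.1). The script was tested on simulated data. The series text calls the extractions biological replicates, but no label says that they came from separate mice, so p-values measure only the spread between extractions, which may be technical. Named genes were Fbln5, all probes of the 8 genes, called genes of the lists that were well above background on all arrays of a group, and otherwise the 3 with the smallest p in each list; Krt19 and Cela1 were added after their values were seen. For genes well above background on all 8 arrays, the 2 genes of the lists with the highest Pearson correlation were named, as a description without a test. Some list genes are not reported here. The 8 genes and all lists were chosen with earlier results of these data known. Alternatives were a normexp correction with an offset of 50 (on median signals), quantile normalization, leaving out probes detected above background on under 4 arrays, raising dim signals to −4.19, eBayes without trend, outlier-marked values kept, the methods' t-test, the deposited table, other probe choices, the outer 16 spot rows left out, a block for the replicate number, and fits without each array.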

Additional observations from a re-analysis of the deposited data

How the results depend on the processing

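None of the 8 genes passed an adjusted p of 0.05 under any of the 21 alternatives in which it could be tested. The direction turned for Sox9 and Onecut2, in 7 cases. Sox9 turned to −0.50 without βFbln5KO replicate 1, to −1.43 with the probe of the largest change and to −0.48 with the mean over its probes. Onecut2 turned to −0.10 without control replicate 3, to −0.0027 without control replicate 4, to −0.060 without βFbln5KO replicate 4 and to −0.31 without the 3 arrays of highest acinar signal, the setting chosen after seeing the data. The count of genes lower at an unadjusted limma p under 0.05 was 1 in the reported setting. It was 0 of 7 testable genes with the floor on dim signals, where 1676 of 56605 probes were lower. It was 2 with the probe of the largest change, where the probe is picked by the value tested. When 1 array at a time was left out it lay between 0 and 2, with 1697 to 2930 of all probes lower. The count was 2 without βFbln5KO replicate 4, where Muc1 joined Onecut1 (unadjusted p 0.0338 in limma) and 1790 of 56603 probes were lower. Leaving out 1 array at a time, the log2 fold change spanned −1.19 to −0.76 for Onecut1, −2.09 to −0.91 for Muc1, −0.50 to 0.98 for Sox9, −0.10 to 0.14 for Onecut2, −0.86 to −0.30 for Cftr, 0.039 to 0.35 for Spp1, −0.35 to −0.012 for Hes1 and −0.25 to −0.034 for Gata6. Without a trend in eBayes 6184 probes were higher and 394 lower at an adjusted p under 0.05 (5 and 1 with it), and without the 3 arrays of highest acinar signal 12620 and 443 were, none of the 8 genes among them by its brightest probe. Cftr has no value with the floor, where every array is at it, nor with the filter on dim probes, which Sox9 also fails, and Gata6 is not in the deposited table. The causes were not tested.

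Same-numbered arrays share a slide column, but the correlations of their deviations were 0.20, 0.30, −0.22 and −0.022 over 26341 probes, so the numbers were not taken as pairs. With the replicate number as a block the log2 fold changes were −0.98 for Onecut1 (adjusted p 0.219 in limma) and −1.49 for Muc1 (adjusted p 0.264 in limma). The unadjusted count of lower genes stayed at 1, where 2105 of 56605 probes were lower by that threshold. Signals near background limit Sox9, Cftr, Muc1, Onecut1 and Hes1, and the precision rests on 4 arrays per group.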
